A study of Mus musculus with 16 samples.

Results

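Gzma-positive lymph node T cells are the draining lymph node cells in which at least 1 count of Gzma, the serine protease granzyme A, was recorded. They numbered 336 of the 1625 lymph node cells and of the 5727 cells of the whole series, and the other 1289 lymph node cells had a Gzma count of 0. The cells were Pmel CD8+Thy1.1+ T cells, which carry a transgenic receptor for a melanoma antigen, from C57BL/6 mice with melanoma-associated vitiligo. The mice were aged 16 weeks, and the column names place the lymph node cells at day 45, the time after tumor surgery given by the series. The 4 lymph node samples differ only in a lane number and were treated as 1 library, as were the 4 samples each of lung, liver and skin, so no condition has a replicate and no test was possible. The lymph node was dissociated mechanically and lung with Liberase and DNase followed by a Percoll gradient, so tissue, preparation and library cannot be told apart in any comparison of lymph node with lung. The sources used here do not give the number of mice pooled or the way the cells were sorted.

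Granzyme A is stored in the granules of cytotoxic lymphocytes beside perforin and the other granzymes, and is released into a target cell on contact. Among memory CD8 T cells, effector cells that pass through blood and tissues usually carry granules with granzymes and produce Klf2, Ly6C and killer lectin-like receptors. Central memory cells of lymph nodes rely on Tcf7, and resident memory cells hold their place with Itgae (CD103), Cxcr6 and Cd69. The interferon-induced transmembrane proteins Ifitm1, Ifitm2 and Ifitm3 restrict entry of viruses and are encoded side by side on chromosome 7.

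The stretches before the start sites of Gzma and of the 3 Ifitm genes are shown because the Ifitm genes had the 3 highest levels in the Gzma-positive cells relative to the other lymph node cells among the 30 genes named by the size of their difference. Each holds the 250 bases before the RefSeq start site, 5′ to 3′ along the gene's strand in GRCm38.p6, and capitals mark a match to GAAA, any 2 bases and GAAA, the core of the element bound by interferon-activated factors, on either strand. The windows are chr13:113100982-113101231 (minus strand) for Gzma, chr7:140967826-140968075 (plus) for Ifitm1, chr7:140955962-140956211 (minus) for Ifitm2 and chr7:141010745-141010994 (minus) for Ifitm3.
Gzma: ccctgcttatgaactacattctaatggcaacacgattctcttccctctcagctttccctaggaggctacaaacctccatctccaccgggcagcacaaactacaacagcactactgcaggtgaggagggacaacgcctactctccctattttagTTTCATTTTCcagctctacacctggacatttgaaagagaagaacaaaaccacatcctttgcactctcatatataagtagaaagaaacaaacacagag
Ifitm1: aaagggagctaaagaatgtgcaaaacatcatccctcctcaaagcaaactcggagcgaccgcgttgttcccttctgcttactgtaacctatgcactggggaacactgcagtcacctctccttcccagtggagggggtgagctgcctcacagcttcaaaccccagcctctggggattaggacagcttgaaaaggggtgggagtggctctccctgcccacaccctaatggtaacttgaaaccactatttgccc
Ifitm2: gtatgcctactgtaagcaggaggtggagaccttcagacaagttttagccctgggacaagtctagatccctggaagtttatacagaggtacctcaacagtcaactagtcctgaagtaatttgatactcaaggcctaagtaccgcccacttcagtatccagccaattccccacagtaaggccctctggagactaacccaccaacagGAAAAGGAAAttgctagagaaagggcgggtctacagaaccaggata
Ifitm3: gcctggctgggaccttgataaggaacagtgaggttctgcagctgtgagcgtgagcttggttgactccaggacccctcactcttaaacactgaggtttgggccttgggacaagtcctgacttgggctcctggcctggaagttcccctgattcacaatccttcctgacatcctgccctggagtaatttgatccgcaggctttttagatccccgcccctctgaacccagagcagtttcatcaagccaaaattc
The motif was searched from 250 bases before to 50 bases after each start, and 1131 of 32851 such RefSeq windows (3.44%) hold it. Ifitm2 has a match at position -46 and Gzma has one on the reverse strand at -97. Ifitm3 has its 2 matches at +3 and +20, past the stretch shown, and Ifitm1 has none in this window. The gene spans given below are from GENCODE, and their starts differ from the RefSeq starts for the 3 Ifitm genes. The Ifitm1 window lies inside its GENCODE span, so it does not cover the bases before the GENCODE start. The Ifitm2 and Ifitm3 windows overlap the ends of their spans. A match is a description of the letters and not a measured binding site.

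The cells were chosen by their Gzma count, so Gzma itself is described without a test. The library held 3135 Gzma counts, and the level over all lymph node cells was 692 CPM (counts of a gene per 1000000 counts of the pooled cells; 95% exact Poisson interval 668 to 716, counting error only). The counts were unevenly spread. A single Gzma count was held by 131 cells, 39.0% of the positive cells, and these held 4.18% of the Gzma counts. A further 86 cells (25.6%) had 2 to 4 counts and held 7.05%. The remaining 119 cells (35.4%) had 5 or more counts and held 88.8%, with a highest value of 172. The 10 cells with most Gzma held 30.9% of the counts.

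**Figure D1:**
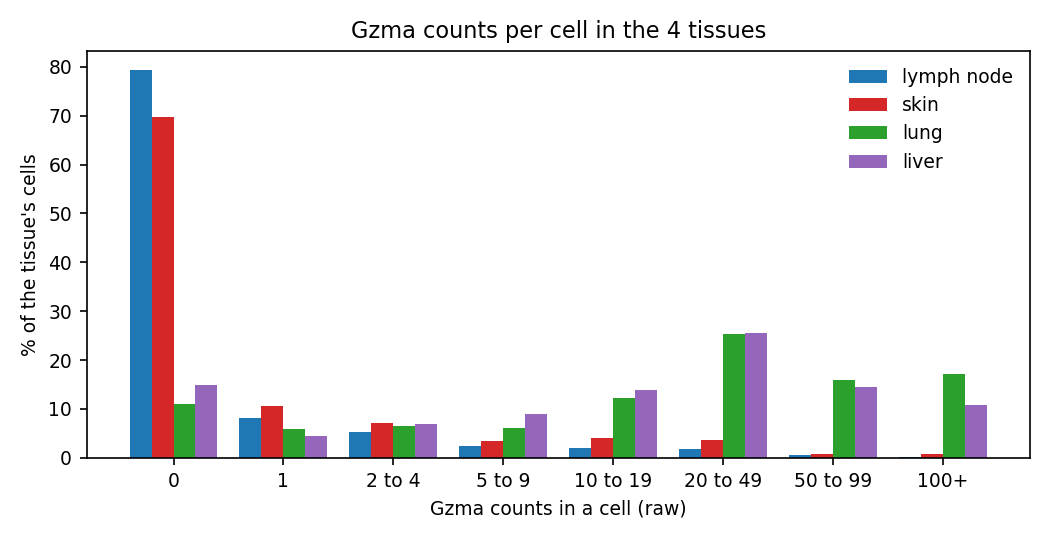
Bars give the percent of a tissue's cells (vertical axis) in each class of raw Gzma counts per cell (horizontal axis), with 1 library for each of the 4 tissues. Among cells with Gzma, the median count was 2 in lymph node and 3 in skin, against 27 in liver and 34 in lung.

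The Gzma-positive share was lower in lymph node than in the other tissues. It was 20.7% of lymph node cells (Clopper-Pearson 95% interval 18.7 to 22.7), 30.3% of skin cells (371 of 1224), 85.1% of liver cells (473 of 556) and 88.9% of lung cells (2065 of 2322). When every cell was thinned to 1886 counts, which left out 131 lymph node, 141 skin, 27 liver and 273 lung cells, the shares were 18.1% (16.2 to 20.2), 28.2%, 83.6% and 91.9%. The pooled Gzma level was 1401 CPM in skin, 11049 CPM in liver and 14637 CPM in lung. Lymph node and skin were the neighbours in this order with the lowest levels, and their counting intervals did not overlap, but with 1 library a tissue the spread between libraries is unknown. Markers of B and plasma cells, which a CD8 T cell should lack, had a count in up to 2.01% of thinned lymph node cells (Ighm), and Lyz2, a myeloid marker, in 1.27%. Other listed markers were more widespread in the same cells: Trdc in 8.43%, Cd40lg in 9.84%, Cd74 in 20.3% and Cst3 in 33.3%. The share of free RNA in the Gzma counts was not tested. A cell with 1 Gzma count, taken alone, cannot be told apart from a cell that picked up free RNA.

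The positive cells held more counts. Their median total was 2898.5 counts and 1220 genes per cell, against 2600 counts and 1161 genes in the Gzma-zero cells. Cells with 1 Gzma count, just inside the rule, had a median total of 2687, and cells with 5 or more had 3228. The median mitochondrial share was 1.58% in the positive and 1.67% in the Gzma-zero cells. Of 19 barcodes found in more than 1 tissue, 11 belonged to lymph node cells and 0 of these cells were Gzma-positive. The pooled positive cells held 1065596 counts and the Gzma-zero cells 3466737.

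Markers of CD8 T cells were close in both classes, and few counts came from natural killer or B cell markers. Cd8b1, the CD8 beta chain, had 1.16 times and Thy1 1.10 times the CPM of the Gzma-zero cells, and Cd8a 0.89 times. None of the 13 genes of T cell identity that were compared passed the call used below. Tyrobp and Fcer1g, adaptor chains of natural killer and myeloid cells, together stood at 26.4 CPM in the positive and 4.62 CPM in the Gzma-zero cells. These rest on 28 and 16 counts, and 10 of the 13 Tyrobp counts of the positive class came from 1 cell. The other 6 natural killer markers on the list, Ncr1 among them, could not be matched to any of the 9223 genes counted, so their levels are unknown. The 5 B and plasma cell markers analysed summed to 31.1 CPM in the positive and 42.4 CPM in the Gzma-zero cells. Myeloid markers summed to 448 and 476 CPM, mostly Cst3 and Cd74, while Csf1r and Cd14 were at 0 in both classes. The 3 gamma delta T cell genes compared had ratios below 1, and 1 of them, Tcrg-C4, was called lower. The part of these markers in the differences below was not tested.

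Across the 4766 other genes with at least 100 counts in the lymph node, most levels were close in both classes, and a small set differed. A gene was called higher or lower when its pooled CPM differed at least 1.5-fold and the exact 95% Poisson interval of the ratio excluded equality. That interval covers counting error only, and the classes were cut from a count in the same cells, so a call is a description of this library. There were 82 genes called higher (1.72%) and 128 called lower (2.69%), and the median log2 ratio over all genes compared was -0.03. These shares are the background for the counts of list members called, and a short list can hold 0 calls at them. With a size factor from the median gene ratio in place of totals, 97 were called higher and 100 lower, which moved the higher share of calls from 39.0% to 49.2%. The plot of ratio against level shows the named genes among all genes compared.

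**Figure D2:**
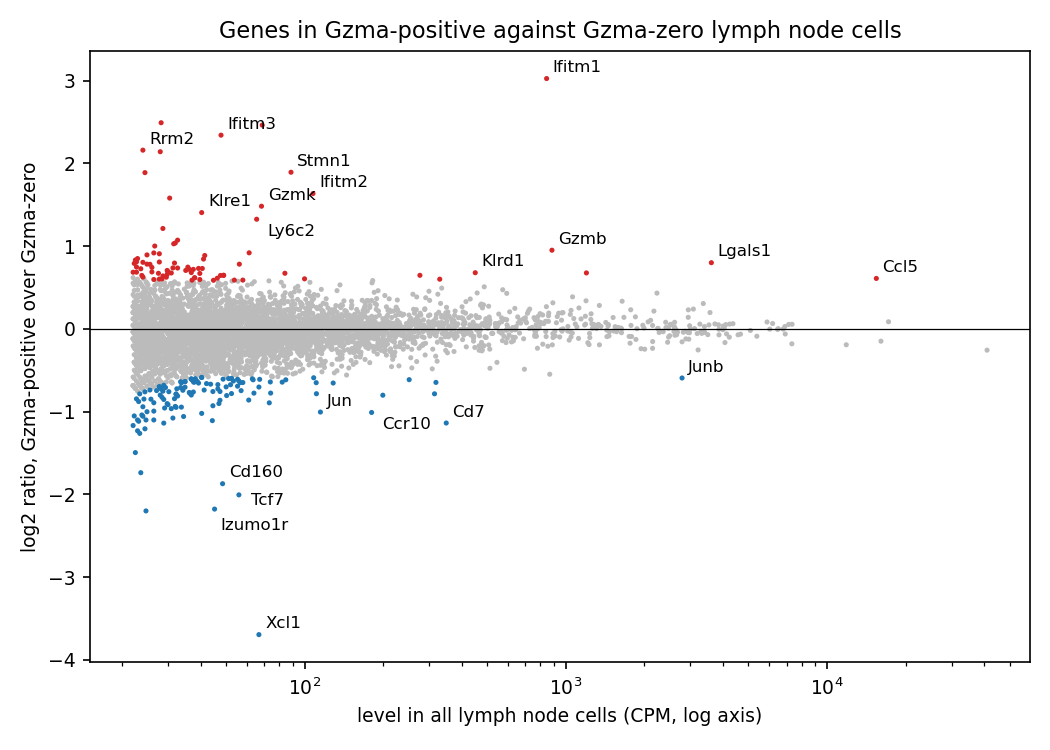
Each point is 1 gene, with its pooled level in lymph node cells (CPM, log axis, horizontal) and its log2 ratio of Gzma-positive over Gzma-zero cells (vertical); red marks genes called higher and blue genes called lower. Ifitm1, Ifitm3 and Ifitm2 lie highest among the genes named by size with log2 ratios of 3.03, 2.34 and 1.64, and Tcf7 lies at -2.01.

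Among the 15 higher genes named by size, the Ifitm genes came first. Ifitm1 (GRCm38 chr7:140967221-140969825, plus strand) was at 2570 CPM in the Gzma-positive cells and 316 CPM in the Gzma-zero cells, a ratio of 8.14 (7.59 to 8.74). At the fixed depth it had a count in 41.9% of the positive and 13.02% of the other cells. Ifitm3 (chr7:141009586-141010770, minus strand) was at 124 and 24.5 CPM, a ratio of 5.07 (3.83 to 6.74). Ifitm2 (chr7:140954837-140955987, minus strand) was at 224 and 72.1 CPM, a ratio of 3.11 (2.59 to 3.72). Thus all 3 stood higher where Gzma was detected. Because these paralogs share sequence, how the reads were divided among them is uncertain. Of 20 interferon stimulated genes compared, 0 were called higher and 0 lower, beside 1.72% and 2.69% of all genes. A list of 20 can hold 0 calls at such shares. Of the 20, 13 had a ratio above 1, beside 2111 of 4766 over all genes. Their median log2 ratio was 0.09, beside -0.03 over all genes. Isg15, a ubiquitin-like protein induced by interferon, had a ratio of 1.13 and Ifit1, a sensor of viral RNA, one of 0.87.

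Granule genes came next. Gzmk (granzyme K, chr13:113171608-113225908, minus strand), which lies beside Gzma (chr13:113093825-113100981), was at 135 CPM in positive and 48.2 CPM in Gzma-zero cells, a ratio of 2.79 (2.22 to 3.51). It had a count in 19.3% and 6.86% of cells at the fixed depth. Gzmb (granzyme B, chr14:56258838-56262260) was at 1403 and 726 CPM, a ratio of 1.93 (1.81 to 2.06), and was detected in 67.6% and 46.4% of cells. The rest of the cytotoxic list moved little. Of its 15 compared members, these 2 were called higher and 0 lower, beside 1.72% and 2.69% of all genes. The median log2 ratio was 0.12. Prf1, the pore-forming perforin, was at 19.8 and 15.6 CPM, Nkg7, a granule membrane protein, had a ratio of 1.15, and Ifng, the main T cell interferon, one of 0.95. Among effector transcription factors, 0 of 8 were called in either direction, and Tbx21 (T-bet) had a ratio of 0.89.

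Killer lectin-like receptors were higher in part. Klrd1 (CD94, chr6:129591782-129598775), the partner chain of NKG2 receptors, was at 632 and 395 CPM, a ratio of 1.60 (1.46 to 1.76), and was detected in 63.6% and 44.9% of cells. Its neighbour Klre1 (chr6:129577905-129585827) was at 77.2 and 29.1 CPM, a ratio of 2.65. Those 2 of the 5 compared were called higher and 0 lower, beside 1.72% and 2.69% of all genes. Klrc1 (NKG2A) had a ratio of 1.41 and Klrk1 (NKG2D) one of 1.20, and neither was called. Klrg1, a marker of short-lived effector cells, had 0 counts in both classes, where 3 counts would be 2.82 CPM in the positive and 0.865 CPM in the Gzma-zero cells.

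Genes linked to recirculation stood higher in the positive cells in 4 of 16 cases, with 0 lower, beside 1.72% and 2.69% of all genes. The other 12, among them Cx3cr1, a marker of effector memory cells, were not called. The lowest ratio of the 16 was 0.845. Klf2, the transcription factor that drives S1pr1, was at 382 and 244 CPM, a ratio of 1.57 (1.39 to 1.76). Ly6c2 (chr15:75108158-75111970), a surface antigen of effector and central memory cells, was at 121 and 48.5 CPM, a ratio of 2.51 (1.98 to 3.17). Its reads may be shared with other Ly6 genes, and 1 cell held 20 of its 129 counts in the positive class. Lgals1 (galectin-1) was at 5347 and 3072 CPM, a ratio of 1.74 (1.69 to 1.80), and Rasgrp2, which activates integrins, at 118 and 73.8 CPM. The receptor S1pr1, needed to leave a lymph node, was at 20.7 and 13.8 CPM with an interval of the ratio from 0.86 to 2.53, so no difference in it was detectable at this depth.

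Residency genes showed no shared direction. Of 24 compared, 1 was called higher (Skil) and 2 lower (Tnfaip3 and Xcl1), with a median log2 ratio of -0.09. Over all genes 1.72% were called higher and 2.69% lower. Itgae (CD103), the integrin chain that binds E-cadherin, was at 374 CPM in both classes, a ratio of 1.0 (0.892 to 1.12), and had a count in 173 of the 327 positive cells at the fixed depth. Among the 137 of these that also had a count of Ifitm1, 74 (54.0%, 45.3 to 62.6) had a count of Itgae. Cxcr6, the receptor for CXCL16, was at 2017 and 1957 CPM, a ratio of 1.03 (0.98 to 1.08). Cd69, which holds cells in tissue by blocking S1pr1, was at 76.2 and 101 CPM, a ratio of 0.76 (0.59 to 0.97) that fell short of the fold needed for a call. The Gzma-positive cells thus carried Itgae and Cxcr6 at levels close to those of the Gzma-zero cells.

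Chemokine genes split. Ccl5 (chr11:83525778-83530518), a chemokine stored by memory CD8 T cells, was at 20959 and 13736 CPM, a ratio of 1.53 (1.502 to 1.55) that lost its call when depth was equalised, and Ccl3 at 52.7 and 25.7 CPM, a ratio of 2.05. Xcl1 (lymphotactin, chr1:164931644-164935527), which draws in cross-presenting dendritic cells, was at 6.59 CPM in the positive and 85.4 CPM in the Gzma-zero cells, a ratio of 0.0772 (0.0308 to 0.161). A single Gzma-zero cell held 40 of its 296 counts, and without that cell the ratio of Xcl1 was 0.0891. It had the lowest ratio among the list members named here.

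Central memory genes were lower in 4 of 11 cases and higher in 0, with a median log2 ratio of -0.37. Over all genes 2.69% were called lower and 1.72% higher. Tcf7 (TCF-1, chr11:52252371-52283014), the transcription factor of stem-like and central memory cells, was at 16.9 CPM in the positive and 68.1 CPM in the Gzma-zero cells, 4.02-fold lower (2.49 to 6.90). It had a count in 2.75% and 11.3% of cells at the fixed depth. Izumo1r (folate receptor 4) was at 12.2 and 55.4 CPM, Slamf6, a surface marker of stem-like cells, at 16.9 and 35.8 CPM, and Cd28, the costimulatory receptor, at 127 and 222 CPM. Ccr7, the lymph node homing receptor, had 10 and 72 counts, too few to be compared. Il7r, the interleukin 7 receptor, was at 409 and 454 CPM and was not called. Of 4 inhibitory and exhaustion genes compared, 2 were called lower. The inhibitory receptor Cd160 was at 16.0 and 58.6 CPM, a ratio of 0.273, and Tox, a transcription factor of exhausted cells, at 12.2 and 26.2 CPM, a ratio of 0.466. In the positive cells Xcl1 was detected in 1.53% and Izumo1r in 0.917% of cells, no more often than Ighm (1.53%), so these counts cannot be told apart from background.

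Immediate early genes, which respond within minutes to receptor signals or to handling, were lower in 5 of 14 cases and higher in 0. The ratio was below 1 for all 14, with a median log2 ratio of -0.26. Over all genes 2.69% were called lower, and 2655 of 4766 had a ratio below 1. Jun was at 64.9 and 130 CPM, a ratio of 0.498, and Fos at 44.2 and 82.2 CPM, a ratio of 0.538; both are AP-1 subunits. Junb, another subunit, was at 2004 and 3024 CPM, a ratio of 0.663 (0.632 to 0.694), and lost its call with the size factor. Dusp1, a phosphatase of MAP kinases, and Ier5 had ratios of 0.653 and 0.639. Outside the lists, Cd7, a T cell surface protein, was at 182 and 400 CPM (16.2% and 33.2% of cells), a ratio of 0.454 (0.389 to 0.529). Ccr10, the receptor for the skin chemokine CCL27, was at 102 and 205 CPM, a ratio of 0.496 (0.402 to 0.608). Rgcc, Nr3c1 (the glucocorticoid receptor), Ndufaf3, Bcl7b, Ifitm10 and Gtf2i made up the rest of the lower set, with ratios from 0.551 to 0.637. The other named higher genes were Lgals3 (galectin-3), Gstm5, Reep5, Cep164, Gna15 and Txndc5, with ratios from 1.52 to 1.89.

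**Figure D3:**
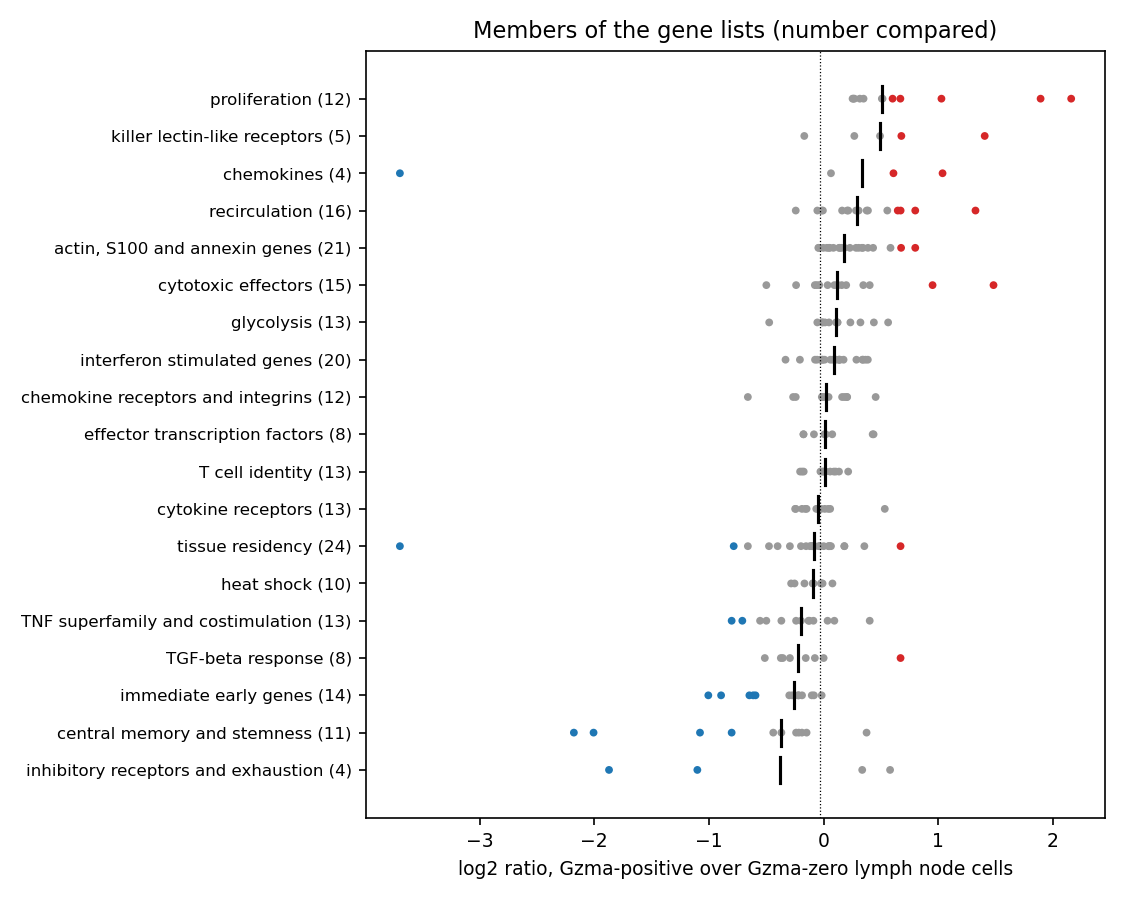
Each point is a list member at its log2 ratio of Gzma-positive over Gzma-zero lymph node cells (horizontal axis), red where called higher and blue where called lower; black bars are list medians and the dotted line is the median of all genes compared. The proliferation list has 5 of 12 called higher and 0 lower, immediate early genes 0 higher and 5 lower of 14, and interferon stimulated genes 0 of 20 in either direction. Of all genes compared, 1.72% were called higher and 2.69% lower.

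Cell cycle genes were higher in 5 of 12 cases (Mcm3, Rrm2, Stmn1, Top2a and Tyms) and lower in 0. Over all genes compared, 1.72% were called higher and 2.69% lower. All 12 had a ratio above 1, with a median log2 ratio of 0.51. With 4 or more counts over 19 proliferation genes taken as cycling, a cut chosen after seeing the data, 25 of 336 positive cells (7.44%, 4.87 to 10.8) and 30 of 1289 Gzma-zero cells (2.33%, 1.58 to 3.31) qualified. The cut was applied to counts that were not thinned, and the positive cells held more counts. The part of depth in these shares was not tested. A single cell held 45 of the 214 Stmn1 counts of the positive class, and 1 cell held 19 of the 63 Rrm2 counts. Without its leading cell, each of Tyms and Mcm3 lost its call. Glycolysis genes (0 of 13), heat shock genes (0 of 10), cytokine receptors (0 of 13) and chemokine receptors and integrins (0 of 12) had none called. Lists of this length can hold 0 calls at the shares over all genes, so these zeros do not set the lists apart. Of 13 TNF superfamily and costimulation genes, 2 were called lower (Cd28 and Tnfsf14), and of 8 TGF-beta response genes 1 was called higher (Skil). Actin, S100 and annexin genes had 2 of 21 called higher (Lgals1 and Lgals3), with 18 ratios above 1.

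Of the 15 higher genes named by size, 10 stood higher at every step in Gzma count. They were chosen by their ratio in these same cells, which favours such an order, and the share over all genes was not counted. Ifitm1 stood at 316 CPM in cells with 0 Gzma counts, 617 CPM with 1, 1503 CPM with 2 to 4 and 4888 CPM with 5 or more. Gzmk stood at 48.2, 55.4, 148 and 196 CPM in the same order of classes. Lgals1 stood at 3072, 3739, 4906 and 7005 CPM. Klrd1 stood at 395, 472, 637 and 767 CPM. Each of these levels was higher in every step up in Gzma, although the first step of Gzmk was within counting error, and Ifitm1 with 5 or more counts reached 7.92 times (6.91 to 9.10) its level in the 1-count cells. The 5 out of order were Gstm5 (50.8, 111, 108 and 76.0 CPM), Klf2 (244, 354, 265 and 475 CPM), Cep164, Gna15 and Txndc5. Ly6c2, from the recirculation list, was also out of order with 48.5, 21.1, 76.2 and 235 CPM.

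Of the 15 lower genes, which were chosen in the same way, 11 stood lower at every step. Tcf7 stood at 68.1 CPM with 0 Gzma counts, 39.6 CPM with 1, 8.02 CPM with 2 to 4 and 2.30 CPM with 5 or more. The last 2 of these levels rest on 2 counts and 1 count of Tcf7, so the step between them is within counting error. Xcl1 stood at 85.4, 13.2, 4.01 and 2.30 CPM. Junb stood at 3024, 2784, 1968 and 1343 CPM. The 4 out of order were Cd7 (400, 235, 144 and 157 CPM), Ccr10 (205, 100.3, 104 and 101 CPM), Ier5 and Dusp1. Fos was out of order too, at 82.2, 34.3, 104 and 18.4 CPM. Itgae, at 374, 388, 457 and 313 CPM, and Cxcr6, at 1957, 2066, 2216 and 1860 CPM, had no such order.

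**Figure D4:**
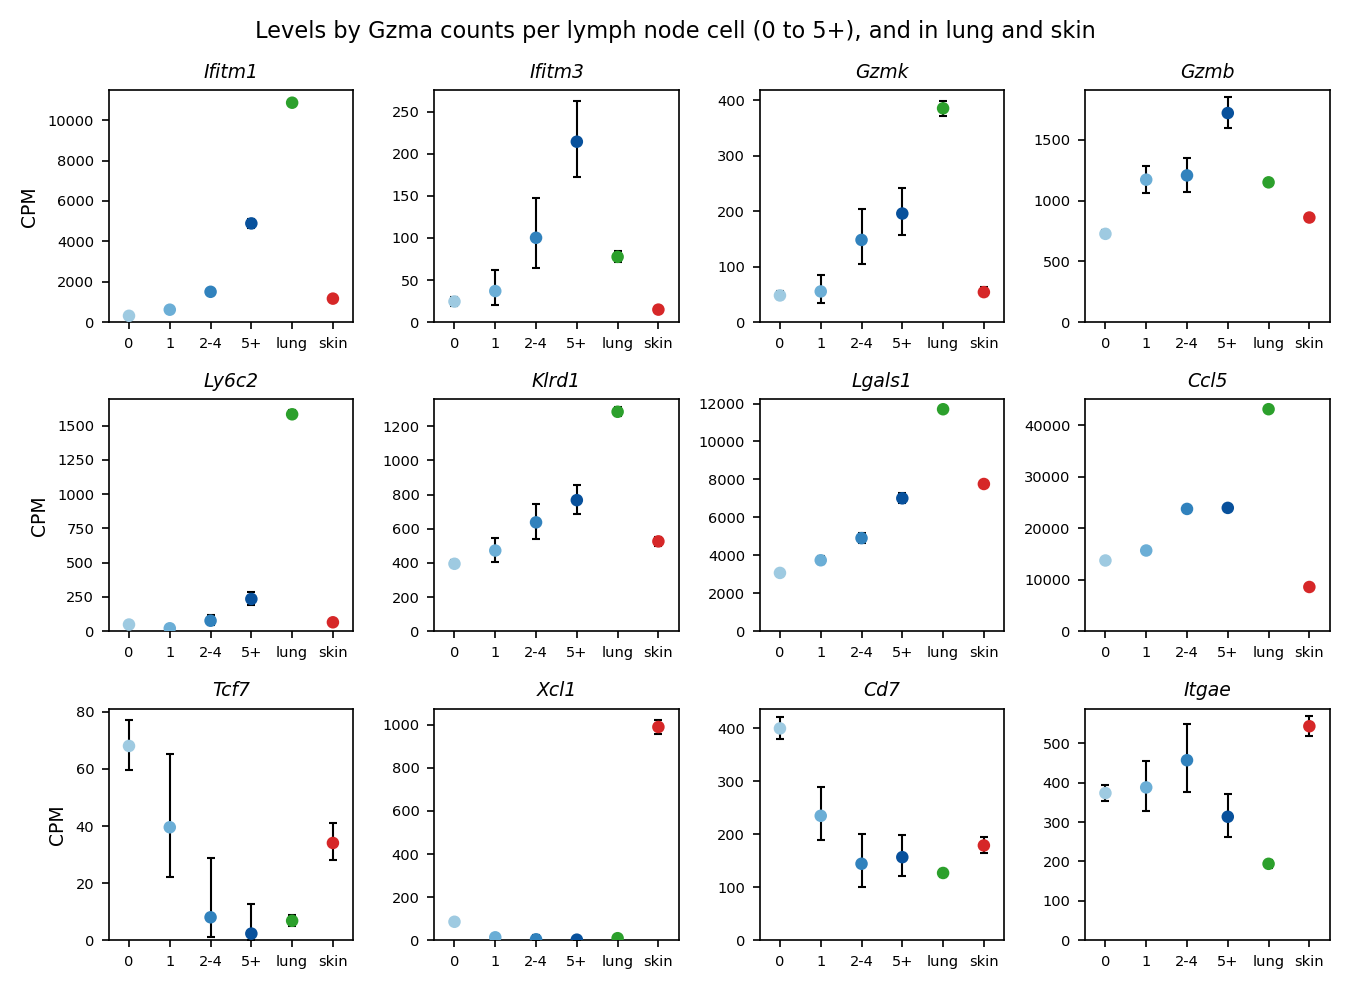
Pooled level in CPM (linear vertical axes from 0) of 12 genes in lymph node cells with 0, 1, 2 to 4 and 5 or more Gzma counts and in all lung and skin cells; bars are exact 95% Poisson intervals. Ifitm1 goes from 316 to 4888 CPM across the classes and Tcf7 from 68.1 to 2.30 CPM, the last from 1 count.

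Cells with exactly 1 Gzma count lie just inside the rule and those with 0 just outside it. Ifitm1 had a ratio of 1.96 (1.69 to 2.26) in 1-count over 0-count cells, Gzmb 1.61 (1.46 to 1.79), Gzmk 1.15 (0.69 to 1.82) and Tcf7 0.58 (0.32 to 0.98). Among genes compared in that contrast, 71 of 4324 (1.64%) were called higher and 76 (1.76%) lower, and for 5 or more counts over 0 these were 123 (2.84%) and 232 (5.35%) of 4334. For 2 to 4 counts over 0 they were 92 (2.19%) and 120 (2.85%) of 4209, and for 5 or more counts over 1 they were 36 (3.35%) and 29 (2.7%) of 1076. Of the 15 named higher genes, 9 were higher in the 1-count than in the 0-count cells, and 11 were higher with 5 or more counts than with 1, with intervals that excluded equality. Of the 15 lower genes, 7 and 10 were lower in the same steps. Both sets were chosen from these same cells, and the share over all genes by this interval rule without a fold was not counted.

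Detection in single cells was counted from the other side. For these shares Gzma was read from the thinned counts too, by which 271 cells were Gzma-positive. At the fixed depth, 127 of 289 cells with Ifitm1 (43.9%) were Gzma-positive, against 11.95% of cells without it. Of the 83 cells with Ifitm3, 46 were (55.4%), and of the 143 with Gzmk, 60 were (42.0%). Of the 141 cells with Tcf7, 3 were Gzma-positive (2.1%, 0.4 to 6.1), against 19.8% of cells without it. With Gzma from the raw counts, 9 of the cells with Tcf7 were Gzma-positive and 132 were Gzma-zero. For Itgae the shares were 19.8% with and 16.5% without. By the raw Gzma count again, Ifitm1 and Tcf7 were detected together in 0 of 327 positive cells (upper bound of the exact interval 1.12%). They were in 13 of 1167 Gzma-zero cells (1.11%), so no difference was detectable at this depth.

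Several genes of the higher set stood at still higher levels in lung. Ifitm1 was at 10862 CPM in lung cells, Lgals1 at 11701, Ccl5 at 43142, Klrd1 at 1285, Klf2 at 1131 and Ly6c2 at 1583 CPM, each above the level in lymph node cells with 5 or more Gzma counts. Ifitm3 was not above it, at 77.6 CPM in lung against 214 CPM in those cells, and neither was Gzmb, at 1149 against 1719 CPM. Itgae was at 194 and Cxcr6 at 1086 CPM in lung, below every lymph node class. Thus the Gzma-positive cells lay between the Gzma-zero and the lung cells for part of the set only.

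Whole-profile likeness to lung was higher for the positive cells. Spearman's correlation of pooled CPM across 7821 genes with at least 10 CPM, with all groups thinned to 1062461 counts, was 0.898 for positive and 0.871 for Gzma-zero cells against lung. It was 0.884 and 0.859 against liver, and 0.869 and 0.865 against skin. The order against skin depended on the setting: with totals as they are it was 0.878 for positive and 0.886 for Gzma-zero cells, and with genes of at least 50 CPM at equal totals 0.796 and 0.799. The correlation is across genes of 1 library a tissue, which share their depth and composition, and it carries no p. With the 4 Gzma classes at equal totals of 249494 counts, the values against lung were 0.799, 0.808, 0.818 and 0.819 from 0 to 5 or more counts, and those against skin were 0.796, 0.794, 0.791 and 0.787. For genes of at least 50 CPM at the same totals, the values against lung were 0.776, 0.782, 0.797 and 0.813. Against liver, with genes of at least 10 CPM at equal totals, the values were 0.785, 0.793, 0.802 and 0.810. Likeness to lung was thus higher in each class with more Gzma at equal totals, and so was likeness to liver. The last step against lung with genes of at least 10 CPM was small. With totals as they are, which differ between the classes, the values against lung were 0.904, 0.874, 0.866 and 0.902, without such an order.

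Lists drawn from other tissues only, with no lymph node cell used, gave a partial match. Of 389 genes at least 2-fold higher in lung than in skin, 223 could be compared in the lymph node, and 19 (8.52%) were called higher and 1 lower in the Gzma-positive cells, with a median log2 ratio of 0.06. Of 756 genes higher in skin than in lung, 474 were compared, 12 (2.53%) were called higher and 31 (6.54%) lower, with a median of -0.12. Of 196 genes higher in liver than in skin, 156 were compared, and 16 (10.3%) were called higher and 1 lower. Of 73 genes higher in liver than in lung, 42 were compared, 0 were called higher and 4 (9.52%) lower, with a median of -0.18. Of 55 higher in lung than in liver, 21 were compared, and 0 were called higher and 1 lower (4.76%). Beside the 1.72% and 2.69% of all genes, the shares of the lung-over-skin list called higher and of the skin-over-lung list called lower were larger, while both medians were small.

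The same cut within lung compares cells of another library and shares no cell with the lymph node contrast. The 257 lung cells without Gzma were shallower than those with it (median totals 1969 and 3097 counts), and 304 genes (5.57%) were called higher and 572 (10.5%) lower of 5462. Across 4565 genes, Spearman's correlation of the 2 sets of ratios was 0.28. Of 74 genes called higher in the lymph node and compared in lung too, 25 were also higher in lung and 3 lower. The 25 were 33.8% of the lymph node list and 11.6% of the 215 in lung. Of 99 called lower, 29 were also lower in lung (29.3% and 5.73% of 506) and 3 higher. In liver 114 genes (5.42%) were called higher and 81 (3.85%) lower of 2102, and in skin 85 (2.41%) and 86 (2.43%) of 3534. Of 34 genes called higher in the lymph node and compared in liver too, 24 (70.6%) were also higher in liver. Of 14 called lower, 7 (50%) were also lower there. In skin the same shares were 14 of 54 (25.9%) and 13 of 71 (18.3%). Of the 15 named higher genes, 10 were also called higher in lung, 11 in liver and 6 in skin, and of the 15 lower genes 7, 6 and 4 were called lower, with 0 called the other way in any tissue.

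**Figure D5:**
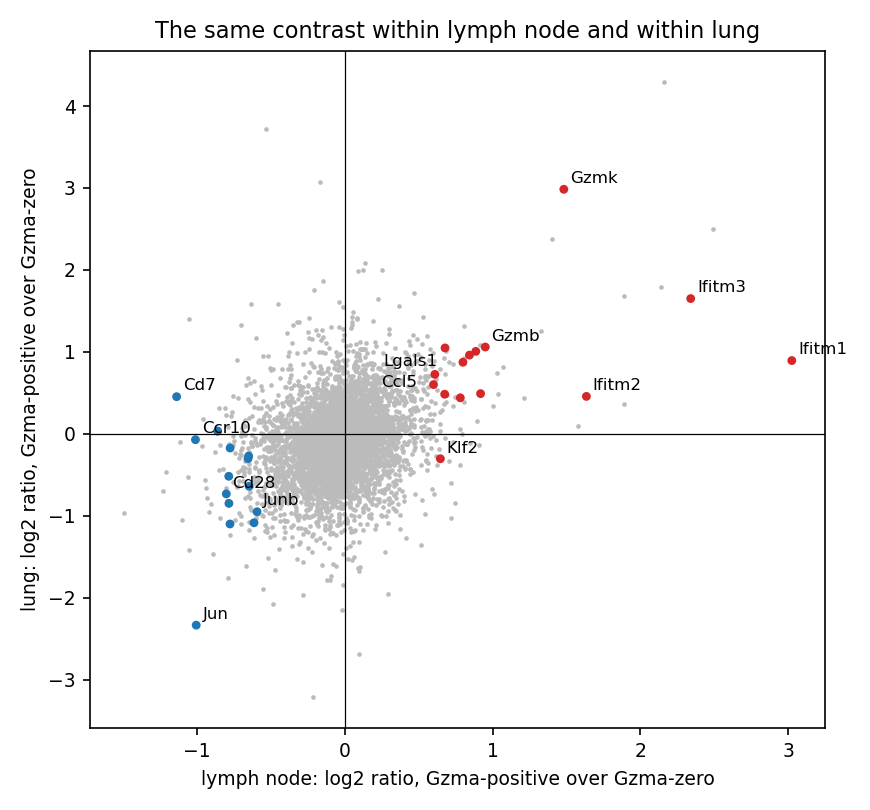
Log2 ratio of Gzma-positive over Gzma-zero cells in lymph node (horizontal axis) and in lung (vertical axis), 1 point a gene, with the named higher genes in red and lower genes in blue. The correlation across 4565 genes is 0.28, and Ifitm1 (8.14 in lymph node, 1.86 in lung) and Gzmk (2.79 and 7.91) are among the genes higher in both.

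Single genes differed in size between the tissues. Ifitm1 had a ratio of 8.14 in lymph node, 7.82 (7.22 to 8.47) in skin, 2.25 (2.10 to 2.42) in liver and 1.86 (1.79 to 1.93) in lung. In lung its Gzma-zero cells already stood at 6033 CPM. Gzmk had ratios of 2.79 in lymph node, 12.7 in skin, 3.49 in liver and 7.91 in lung. Tcf7 had a ratio of 0.249 in lymph node and 0.40 (0.23 to 0.67) in skin. In liver and lung its counts fell below the minimum for a comparison, with ratios of 0.13 (0.06 to 0.27) and 0.16 (0.09 to 0.30). Klf2 had a ratio of 1.57 in lymph node and 0.81 (0.75 to 0.87) in lung. Differences between tissues in these ratios were not tested.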

How the data were processed

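A single table, deposited by the authors, holds raw whole-number counts of 9223 genes in 5727 cells of 4 tissues, with tissue in the column names (0 columns unmapped). Per the submitters' processing notes, Bowtie, RSEM and mm10 were used, without versions. The sources used here do not say if these are counts of molecular identifiers or how genes and cells were filtered. The 4 samples of a tissue were counted as 1 library. Counts were pooled per class and divided by the class total without Gzma to give CPM. Ratios carry the exact conditional binomial 95% interval for Poisson counts and shares the Clopper-Pearson interval, both for counting error only. The level of Gzma itself was divided by the total over all genes. Detection was compared with every cell thinned to 1886 counts, the 10th percentile of cell totals, which left out 9 positive and 122 Gzma-zero lymph node cells.

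Genes were named as the 15 in each direction whose interval lay farthest from equality at its nearer bound, among called genes with at least 50 CPM in the higher class and a count in at least 10% of its thinned cells. Gzma and ribosomal, mitochondrial, receptor-segment and predicted genes were left out, and any list member could also be named. Results for 2 genes are not reported here. The cells, lists and rules were chosen with earlier results of these data known. Doublets were called per tissue with Scrublet in scanpy 1.11.5 at an expected rate of 0.05 (8 lymph node cells, 2 of them Gzma-positive, and 62 cells in all, 1.08%) and were kept. The lymph node library held 4532333 counts, lung 8072278, liver 1928185 and skin 3292210. Other tools were Python 3.11.15, numpy 2.4.6, pandas 2.3.3, scipy 1.17.1 and matplotlib 3.10.9. The ratio and interval code was tested on simulated counts. Gene positions are from GENCODE on GRCm38. Alternatives were a higher Gzma count, depth weighting, thinning, removal of doublets, cycling cells, cells with shared barcodes or the leading cell of a gene, size factors, other count minimums and a 2-fold call. 2 alternatives were added after seeing the data, the shorter cycling list and the lung contrast without shallow cells.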

Additional observations from a re-analysis of the deposited data

Results flagged for a closer look

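For the 7 genes given here, the lymph node and another tissue were called in opposite directions in the same Gzma contrast, and none of these differences was tested. Timm50, of mitochondrial protein import, had a Gzma-positive over Gzma-zero ratio of 1.65 in lymph node and 0.493 in lung, and Socs2, a cytokine signal inhibitor, had 1.65 and 0.658. Rab37 had 0.658 in lymph node and 2.26 in lung, Snx4 had 0.615 and 2.51, and Ganab had 0.643 and 3.01. Mcm2, a helicase subunit of DNA replication, had 1.72 in lymph node and 0.594 in skin. Xcl1 had 0.0772 in lymph node and 2.09 in skin, but 1 skin cell with 1 Gzma count held 1241 of the 3254 skin Xcl1 counts, and the skin ratio without it was 0.541 (0.485 to 0.603).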

How the results depend on the processing

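There were 82 genes called higher and 128 called lower of 4766. Without cells holding 4 or more counts over the whole proliferation list, which leaves out 233 positive and 762 Gzma-zero cells and leaves 2046 genes to compare, the counts were 28 and 48, of which 3 and 12 were among the 82 and 128. After thinning they were 63 and 99 of 3459 genes compared, of which 21 and 38 were among them. There were 180 and 259 of 8579 genes with a minimum of 20 counts, and 205 and 265 of 9222 with no minimum. At 2-fold there were 18 and 27 of 4766. Lower genes numbered 207 of 4518 with at least 2 Gzma counts and 232 of 4334 with at least 5. List members called higher, 17, became 28 with at least 5 counts, 11 after thinning and 8 without the cells of the whole proliferation list. List members called lower, 15, became 23 with at least 2 and 23 with at least 5 counts. The positive share of 20.7% became 18.1% after thinning and 12.6% with at least 2 counts. The likeness difference to lung, 0.0156 with totals as they are, was 0.0276 at equal totals, 0.0317 for genes of at least 50 CPM and -0.001996 with at least 5 counts at unequal totals.

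Without the cells of the whole list, the ratio of Tyms was 0.507 and that of Mcm3 0.977. Without the cycling cells of the shorter list, an alternative chosen after seeing the data, the ratios of Stmn1, Tyms and Mcm3 were 0.992, 0.884 and 0.847; those cells were picked by counts of genes of the same list. None of the 30 named genes changed direction. Lgals3 (1.47), Ccl5 (1.45), Reep5 (1.49), Junb (0.716), Ier5 (0.675) and Dusp1 (0.712) lost their call under depth weighting. After thinning, Lgals3, Ccl5, Gna15, Dusp1, Ndufaf3 and Nr3c1 lost it, and without the cycling cells of the shorter list Reep5, Junb, Ier5, Dusp1 and Gtf2i. Without the cells of the whole list 18 of the 30 lost it, among them Ifitm3, Gzmk, Lgals1, Klrd1, Klf2 and Tcf7. A call needs at least 100 counts, which only 2046 genes had left there, so a gene could lose its call for lack of counts. How many of the 18 did so was not counted. The cause was not tested. No paired analysis was possible because the column names carry no lane or replicate number and each tissue is 1 library. Depth limits S1pr1, Ccr7 and Klrg1.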

Other observations

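Some genes outside the naming rule and lists stood apart, and were chosen here after their values were seen. Plac8, a gene of effector lymphocytes, was at 55.5 CPM in the positive and 15 CPM in the Gzma-zero cells, a ratio of 3.70 (2.51 to 5.48). AA467197 was at 62.1 and 20.8 CPM and Napsa, an aspartic protease, at 54.6 and 26.0 CPM. Ramp1, the coreceptor of the neuropeptide CGRP, was at 6.59 and 30.3 CPM, and Wnt10a, a Wnt ligand, at 8.47 and 28.3 CPM. Both Ramp1 and Wnt10a had 0 counts in cells with 2 or more Gzma counts. Hist1h2ap was at 184 and 33.5 CPM, but 1 cell held 112 of its 196 counts in the positive class.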
